A study of Arabidopsis thaliana with 4 samples.

Results

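The SWEET genes of Arabidopsis thaliana encode membrane proteins that let sugars pass down their concentration gradient, and 10 of them were followed here through a genome-wide map of MYB67 binding. The members were fixed by locus: SWEET1, SWEET2, SWEET4, SWEET11, SWEET12, SWEET13, SWEET14, SWEET15, SWEET16 and SWEET17. They are 10 of 27444 nuclear protein-coding genes and 10 of the 17 SWEET genes. A member counted as having a peak where the authors' gene table names it beside one. They were chosen by gene family, with the assigned peaks and folds of these data known, so their counts and values are a description, with no test.

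MYB67, an R2R3 MYB transcription factor, was studied for its part in the maturing root and its phellem, the suberised outer tissue of the periderm. Its direct targets were sought by DNA affinity purification sequencing (DAP-seq), in which a Halo-tagged factor made in wheat germ extract pulls fragments out of a library of naked genomic DNA. There were 2 libraries with Halo-MYB67 and 2 with the Halo tag alone from an empty vector, all on DNA of the accession Col-0. The tissue label reads root whereas the protocol names leaf as the source of the DNA. The assay reads affinity for DNA without chromatin and measures no expression and no sugar transport. The deposited values describe 1 list of 5390 MYB67 peaks, and none belongs to a single library, so the depth behind a value is unknown and no peak has a replicate error.

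SWEET proteins work without an energy source of their own, unlike the proton-coupled sucrose carriers (SUC) and hexose carriers (STP), which can load sugar against a gradient. Members of clades I and II mostly carry hexoses, members of clade III mostly sucrose, and members of clade IV sit in the vacuolar membrane and carry fructose among other sugars. In roots and vascular tissue they release sugar from phloem cells, exchange it between cytosol and vacuole, and limit its loss to the soil.

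The motif that the authors derived from the MYB67 peaks is shown because the sites counted at each SWEET peak are matches to it. Below is the most frequent base at each of its 10 positions, with the 6 positions where 1 base reaches a fraction of at least 0.6 in capitals.
MYB67 motif: tccACCTAcC

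MYB67 peaks were assigned to 3 of the 10 SWEET members, SWEET4, SWEET12 and SWEET17 (30.0%), beside 14.7% of all nuclear protein-coding genes. SWEET17 stood far above the others, with a fold enrichment of 10.1, against 5.01 at the stronger SWEET12 peak and 3.78 at the SWEET4 peak. The fold is the authors' ratio of the signal in a peak to a background, and how that background was obtained is not given. SWEET1, SWEET2, SWEET11, SWEET13, SWEET14, SWEET15 and SWEET16 had no assigned peak. The 3 genes belong to different clades, SWEET4 to II, SWEET12 to III and SWEET17 to IV. Their strongest peaks had a median fold of 5.01, against 4.47 over all nuclear genes with a peak.

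**Figure D1:**
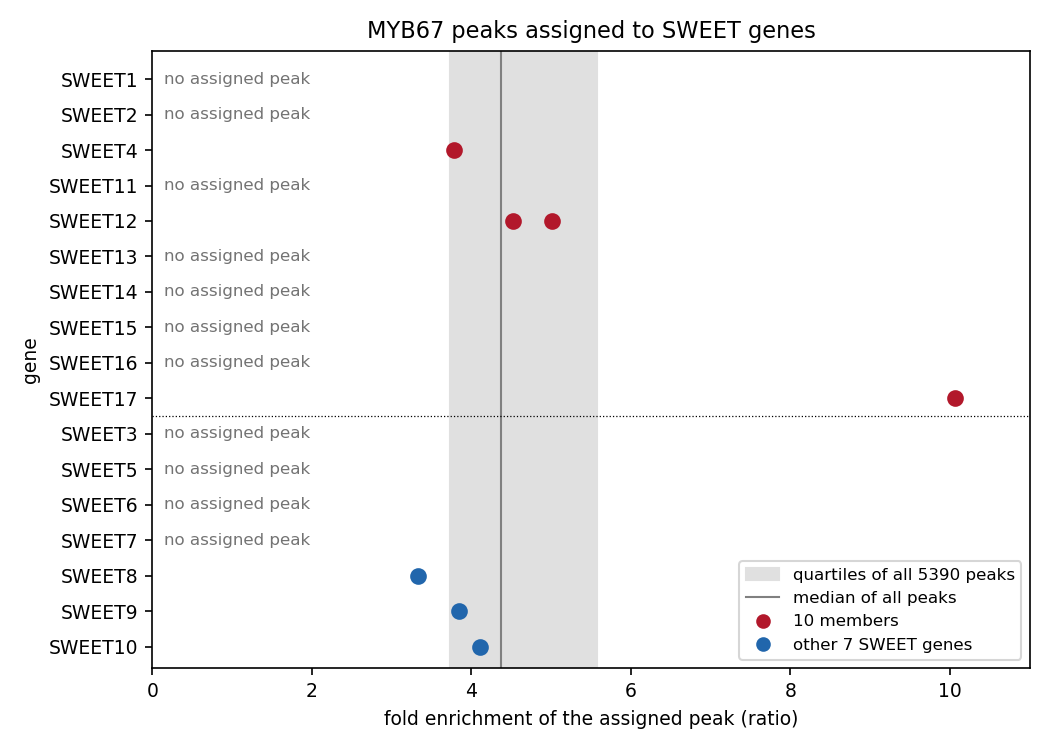
Fold enrichment (x axis, ratio) of every MYB67 peak assigned to the 10 SWEET members (red, above the dotted line) and to the other 7 SWEET genes (blue). The grey band spans the quartiles of all 5390 peaks (3.74 to 5.57) and the grey line their median (4.38). The SWEET17 peak at 10.1 lies outside the band on the high side, the SWEET8 peak at 3.33 on the low side, and the other 5 lie inside it.

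SWEET17 (AT4G15920) encodes a fructose facilitator of the vacuolar membrane, known from roots and leaves for controlling how much fructose the vacuole holds. Its peak lay on chromosome 4 from 9034148 to 9034463, with the summit at 9034301. The −log10 q of the peak was 35.4, where q is the peak caller's adjusted p-value. By fold it shared ranks 155 to 160 of the 5390 peaks, and SWEET17 was 118th by strongest peak among the 4030 nuclear genes with one. A higher fold than 97.0% of peaks and a higher −log10 q than 95.8% of peaks placed it near the top on both measures.

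The SWEET17 peak held 1 site of the MYB67 motif, and that site was close to the limit of the authors' site list. FIMO, a program that scans sequence with a motif, gave it a q of 0.0496, and sites were kept up to 0.05. Among all peaks with a site, 99.9% had a better best site. Of the 160 peaks with a fold at least as high as that of SWEET17, 18 held 1 site and none lacked a site, with a median of 3 sites. In those 160 peaks the median best site q was 0.00819, and SWEET17 was the single one at 0.0496 or above. Over the whole list 7 peaks had a best site at or above that value, with a median fold of 3.74. Among the 1399 peaks with 1 site SWEET17 ranked 18th by fold, and the median fold of these peaks was 4.15.

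**Figure D2:**
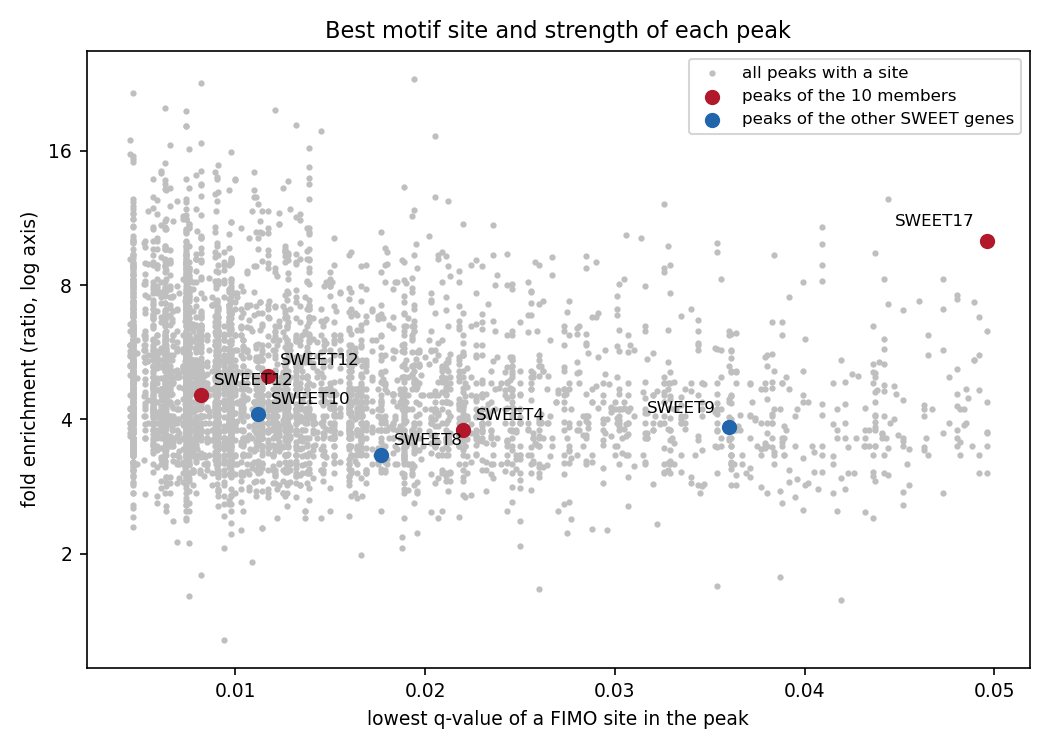
Each point is a MYB67 peak with at least 1 FIMO site, by the lowest site q in the peak (x axis) and its fold enrichment (y axis, ratio, log scale). Peaks of the 10 SWEET members are red and those of the other SWEET genes blue, over all others in grey. SWEET17, at a site q of 0.0496 and a fold of 10.1, stands alone at the upper right, while both SWEET12 peaks lie at the left, at 0.00819 and 0.0117.

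The next peak on chromosome 4 began 816 bp after the SWEET17 peak, at 9035280 to 9035686, and the authors gave it to the next gene, AT4G15930. That neighbouring peak was weaker, with a fold of 5.20 and a −log10 q of 13.3, but held 3 sites, the best at a q of 0.00739. On the other side the nearest peak was 41782 bp away. Of the peaks close together here, the one with the higher fold held fewer and poorer sites.

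By fold and number of sites together, the genes outside the members most like SWEET17 were GTR1 (AT3G47960), ROPGEF11 (AT1G52240) and AT5G51770. Likeness was the distance on log2 fold and log2 of sites plus 1 over the strongest peak of each of the 4030 genes. GTR1, a glucosinolate transporter gene, had a fold of 10.2, ROPGEF11, which encodes an activator of ROP GTPases, had 9.92 and AT5G51770 had 10.2, each with 1 site. Their best site q-values were 0.00819, 0.00462 and 0.00586, all better than the 0.0496 of SWEET17. Some genes slightly less alike had no site at a q of up to 0.01, with best site q-values as high as 0.0328.

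SWEET12 (AT5G23660) encodes a plasma membrane sucrose exporter of phloem parenchyma cells, which acts together with SWEET11 in loading sucrose into the phloem. It was the member with more than 1 peak, and 365 nuclear genes, 9.06% of those with a peak, had at least 2. The first lay on chromosome 5 from 7971946 to 7972233 (summit 7972076), with a fold of 4.53 and a −log10 q of 7.51. The second lay 2966 bp further, from 7975200 to 7975661 (summit 7975345), with a fold of 5.01 and a −log10 q of 10.2. Both folds were moderate, above 52.7% and 66.3% of all peaks.

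The SWEET12 peaks differed in their sites. The first held 1 site, at a q of 0.00819, the best site of any SWEET peak and the single SWEET site at a q of up to 0.01. Over the whole list 47.3% of peaks held such a site. The second peak was wider, 462 bp against 288 bp, and held 3 sites, at q-values of 0.0117, 0.0246 and 0.0310. A further peak, assigned to the preceding gene AT5G23650, lay 526 bp before the first, with a fold of 4.83 and 1 site. These 3 peaks fell within 4553 bp, where the median gap between neighbouring nuclear peaks was 14056 bp and 15.5% of gaps were no longer than the one between the SWEET12 peaks.

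SWEET4 (AT3G28007) encodes a plasma membrane hexose transporter expressed in the vascular tissue of roots and leaves. Its peak lay on chromosome 3 from 10410598 to 10410820 (summit 10410740) and was the weakest among the members, with a fold of 3.78 and a −log10 q of 4.92. That fold exceeded 26.1% of all peaks. It held 2 sites, at q-values of 0.0220 and 0.0419. The next peak began 1511 bp further, with a fold of 3.55 and 1 site at a q of 0.00965, and the authors assigned it to no gene. The nearest peak on the other side was 24023 bp away.

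Across the 4 peaks of the members the number of sites did not follow the fold. In order of fold the peaks of SWEET4, SWEET12 (first and second) and SWEET17 held 2, 1, 3 and 1 sites. The mean was 1.75 sites per peak, against 2.31 over all peaks. Per 100 bp of peak it was 0.552 sites in the 4 peaks and 0.842 over all peaks.

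**Figure D3:**
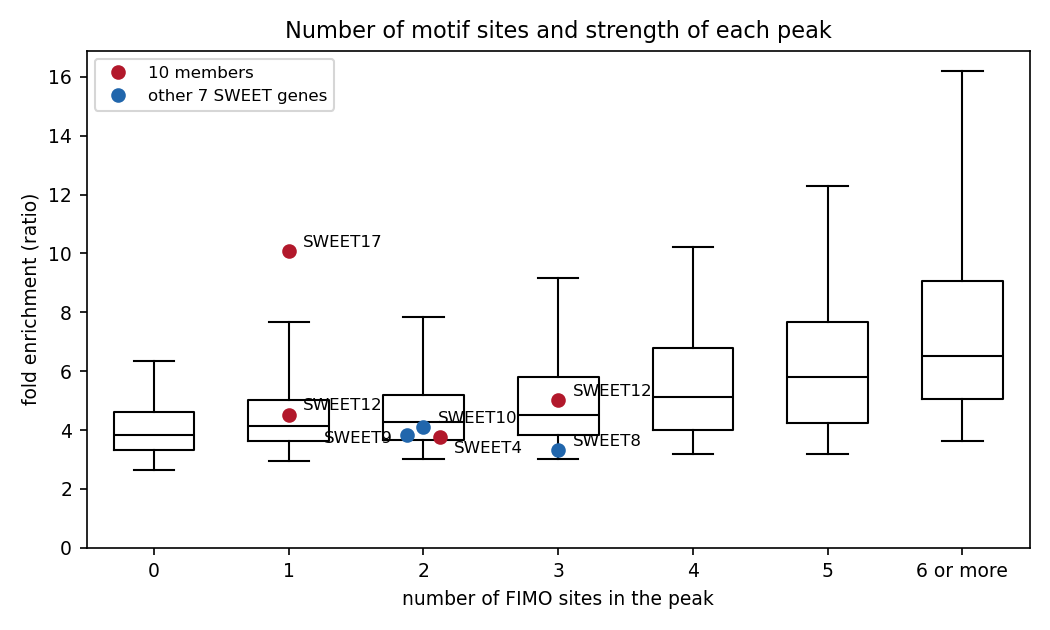
Fold enrichment (y axis, ratio) by the number of FIMO sites in a peak (x axis). Boxes give the quartiles and median of all peaks with that number of sites and whiskers the 5th and 95th percentiles, with SWEET members in red and other SWEET genes in blue (SWEET4 and SWEET9, both at 2 sites, are drawn slightly apart). SWEET17, with 1 site and a fold of 10.1, lies above the upper whisker of its class, and the other 6 peaks lie between the whiskers of theirs.

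The 7 members without a peak belong to clades I, III and IV. SWEET1, a glucose transporter of the plasma membrane, and SWEET2, a vacuolar transporter that limits sugar loss from roots, are the clade I members and had none. In clade III none was assigned to SWEET11, the partner of SWEET12, to SWEET13 or SWEET14, which carry sucrose and also gibberellin, or to SWEET15, which is induced in senescence (its RefSeq symbol is SAG29). SWEET16, the other vacuolar gene of clade IV beside SWEET17, had none either. A missing peak says that no listed peak was assigned to the gene, the weakest peak of the list having a −log10 q of 1.38.

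Neighbours were taken in the order of protein-coding genes of the RefSeq table, where 14.7% of all such genes had a peak. Peaks were assigned to 5 of the 14 direct neighbours of these 7 genes, SWEET10 among them. How far those peaks lay from the SWEET genes was not measured. The members with a peak had one at 2 of 6 neighbours, and the other 7 SWEET genes at 0 of 14. The gene after SWEET1, AT1G21470, had a peak with a fold of 4.82, the gene after SWEET2, AT3G14780, 1 with 3.32, and the gene after SWEET16, AT3G16700, 1 with 4.05. The gene after SWEET11 is CDC2 (AT3G48750), a cell cycle kinase gene, whose peak had a fold of 4.26. SWEET13 follows SWEET10 directly, and the peak there, with a fold of 4.10, was assigned to SWEET10. Neither neighbour of SWEET14 or of SWEET15 had a peak.

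Of the 7 SWEET genes outside the members 3 had a peak (42.9%), beside 14.7% of all nuclear protein-coding genes. None was left at a −log10 q of at least 10, at or above the median fold, or with a site q of up to 0.01. SWEET10 (AT5G50790), which responds to floral induction, had a fold of 4.10 and a −log10 q of 6.93 on chromosome 5 from 20658828 to 20659024, with 2 sites, the better at a q of 0.0112. SWEET9 (AT2G39060), the sucrose exporter of nectaries, had a fold of 3.84 and a −log10 q of 6.30 on chromosome 2 from 16309023 to 16309231, with 2 sites at q-values of 0.0360 and 0.0361. SWEET8 (AT5G40260), needed for the pollen wall, had the lowest fold of the family, 3.33, and a −log10 q of 3.76 on chromosome 5 from 16090423 to 16090674, with 3 sites, the best at 0.0177. All 3 lay below the median fold of the list, 4.38. SWEET3, SWEET5, SWEET6 and SWEET7 had no assigned peak.

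In the whole family 6 of 17 genes had a peak (35.3%, against 14.7% of all nuclear protein-coding genes), with a median strongest fold of 3.97. By clade these were 0 of 3 genes in clade I, 2 of 5 in clade II, 3 of 7 in clade III and 1 of 2 in clade IV. When peaks had to reach a −log10 q of 10, SWEET12 and SWEET17 were left, 2 of 17 genes (11.8%), against 6.07% of all genes. The same 2 genes were left among the peaks at or above the median fold, against 7.81% of all genes. With sites of a q of up to 0.01 required, SWEET12 was left, 1 of 17 (5.88%), against 7.63% of all genes. Among the 10 members alone the same settings left 20.0%, 20.0% and 10.0%. Over the full list the share of the 17 genes lay above that of all genes. With a site q of up to 0.01 required, both SWEET shares rested on 1 gene, SWEET12. There the 5.88% of the 17 genes and the 10.0% of the 10 members both lay near the 7.63% of all genes. In the other settings the counts of members were 3, 2 and 2 genes, chosen with their peaks known.

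Other sugar carriers and sucrose-cleaving enzymes had a peak in 7 of 47 cases (14.9%), beside the same 14.7% of all genes. None of the 9 SUC genes, which include the phloem loader SUC2, had one. Among the 14 STP hexose carriers 3 did. STP13 (AT5G26340, symbol MSS1 in RefSeq), a hexose importer known from defence, had a fold of 6.76 and 3 sites, the highest fold of these lists. The locus AT5G61520 had 2 peaks, the stronger with a fold of 5.38, and STP9, a pollen glucose carrier, had 4.08. Of the 10 vacuolar and ERD6-type carriers AT5G17010 had a fold of 4.26 and ERD6, a gene induced early in dehydration, 2.98. Of the 14 invertase and sucrose synthase genes the vacuolar invertase gene AT1G12240 had 4.08 and SUS5, a sucrose synthase of the phloem, 3.64. All 7 genes lay below the fold of 10.1 at SWEET17, as did 97.0% of all nuclear genes with a peak.

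**Figure D4:**
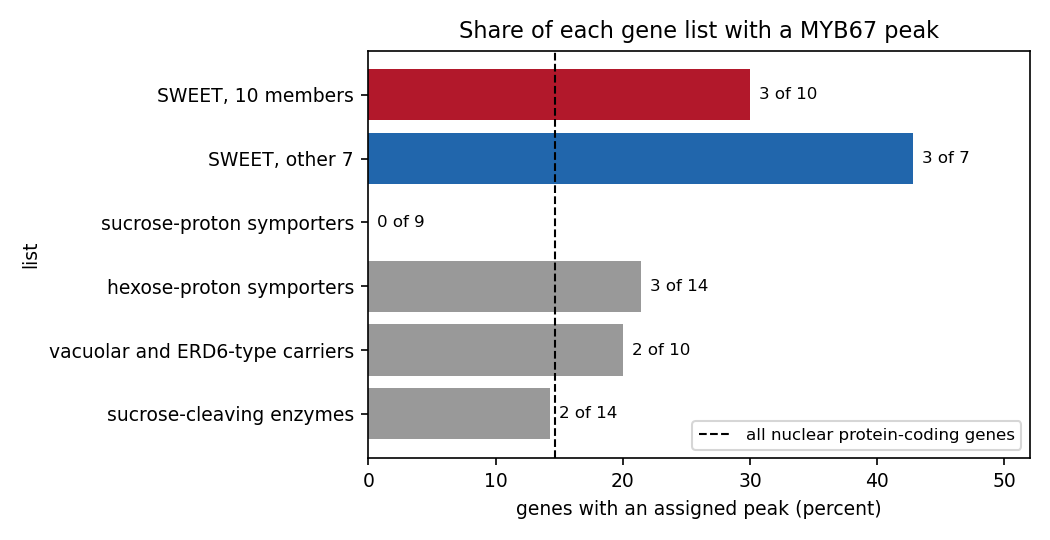
Percent of genes with an assigned MYB67 peak (x axis) in each gene list, with the count written beside each bar. The dashed line marks 14.7%, the share of all nuclear protein-coding genes. Both SWEET bars, at 30.0% (3 of 10) and 42.9% (3 of 7), pass the line. So do the STP carriers (21.4%, 3 of 14) and the vacuolar and ERD6-type carriers (20.0%, 2 of 10). Each of these bars rests on 2 or 3 genes. The sucrose-cleaving enzymes (14.3%, 2 of 14) lie just below the line, and the SUC carriers have no bar (0 of 9).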

How the data were processed

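Per the submitters' processing notes the build was TAIR10, and the tools included MACS3 3.0.0a7, HOMER, bedtools and STAR 2.7.10a, with Trimmomatic 0.39, FastQC and Picard 2.27.1. Their order and settings, the use of each library in peak calling, and the rule joining peaks to genes are not given in the sources used here. The authors deposited for each peak a fold enrichment (a ratio), a −log10 q and, in their gene table, the q-value itself, which matched. The deposited list of FIMO sites gives a q-value per site with the coordinates of the whole peak, so sites were counted per peak and not placed in it. The authors' motif matrix holds the fraction of each base.

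From these files ranks, shares and counts were computed with Python 3.11.15 and pandas 2.3.3 and the joining and ranking steps were tested on simulated data. Genes with several peaks were ranked by the strongest. Positions are TAIR10, counted from 1. Gene names and gene order come from a RefSeq table of TAIR10.1, which has no strand, so exons, introns and promoters were not assigned to peaks, and no genome sequence was used. All 64 loci of the lists matched it, 6 without a symbol, whose place in a list rests on general knowledge. Named were all 17 SWEET genes, up to 4 genes with a peak per other list, the 3 genes most like SWEET17, and the genes next to SWEET genes. The last were chosen after their values were seen. Members and lists were chosen with earlier results of these data known, and no test was made.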

Additional observations from a re-analysis of the deposited data

How the results depend on the processing

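The number of SWEET members with a peak, 3 of 10, was 2 when peaks needed a −log10 q of 10 (20.0%, against 6.07% of all genes) and 2 with peaks at or above the median fold (20.0%, against 7.81%). It was 1 where a site with a q of up to 0.01 was required (10.0%, against 7.63%). With the other 7 SWEET genes added, a larger set of genes, it was 6 of 17 (35.3%, against 14.7%). The median fold of 5.01 was 4.77 over all peaks of the members. The value of 5.01 exceeded the strongest fold of 65.0% of nuclear genes with a peak. With −log10 q in place of fold, the share of genes below the members' median was 59.7%. Sites per SWEET peak were 1.75 in the deposited list, 1.75 with identical entries counted once, 0.25 at a q of up to 0.01 and 0.552 per 100 bp. Over all peaks the means were 2.31 in the deposited list, 0.547 at a q of up to 0.01 and 0.842 per 100 bp. The 7 of 47 other genes became 2 at a peak −log10 q of 10 or more (4.26%, against 6.07% of all genes) and 1 at a site q of up to 0.01 (2.13%, against 7.63%), both chosen after seeing the data. A scan of SWEET sequence was not run, for want of a genome of the build. A join by position was not run either, because the RefSeq genes are of TAIR10.1 and carry no strand. No paired analysis was possible because no value belongs to a single library, so no library could be left out either. Depth is unknown and limits which weak peaks were listed.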

Other observations

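Folds and q-values in the peak list were not unique to a peak. The 5390 peaks held 1770 distinct combinations of fold and −log10 q, and the most common one stood at 148 peaks. The SWEET4 combination was shared exactly by 140 other peaks, among them the weaker peak of the hexose carrier locus AT5G61520. That of the first SWEET12 peak was shared by 84 others and that of the SWEET8 peak by 68. The other 4 SWEET peaks had few such ties, with 5 others for SWEET17, 4 for SWEET10, 2 for SWEET9 and 2 for the second SWEET12 peak, so the number of ties did not follow the fold. The rank of SWEET4 by fold is a range, 3842 to 3982, against 3781 to 3783 for SWEET9.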
